A study of Drosophila melanogaster with 2 samples.

Results

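The Bearded family genes encode small proteins that restrain Notch ligands, and they lie in a pair of gene clusters of the Drosophila melanogaster genome. Peaks of the repressor E(spl)mδ-HLH were examined at 9 genes. E(spl)malpha-BFM, E(spl)m2-BFM, E(spl)m4-BFM and E(spl)m6-BFM are Bearded family genes of the Enhancer of split complex on chromosome arm 3R, and Kaz-m1, a gene of the same complex outside the family, encodes a protein with a Kazal-type protease inhibitor domain. Brd, Tom, Ocho and BobA are Bearded family genes of the Bearded complex on 3L. The 9 were chosen by name from the 13945 protein-coding genes annotated on the arms used. A peak was counted for a gene if its summit, the position of highest enrichment given by the authors, lay in the gene body or within 5 kb of it.

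The chromatin came from whole Drosophila melanogaster embryos of mixed sex, aged 2 to 12 h, of the line E(spl)m-delta-GFP, which stably expresses E(spl)mδ with GFP at its C-terminus. The antibody is labelled HLHmδ. The design held 1 group of 2 biological replicates and no untagged or mutant embryos, so no p-value over samples can be had. The label text also calls these libraries an input control, while their peak lists were derived against a separate control alignment, and they are treated here as immunoprecipitated. The embryos were used whole, so a peak cannot be placed in a tissue.

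Bearded proteins bind the ubiquitin ligase Neuralized, which drives the endocytosis of Delta in the signal-sending cell and so the activation of Notch in its neighbour. Binding by a Bearded protein holds Neuralized back. In the early embryo the genes of the Bearded complex are active in the ectoderm and kept off in the mesoderm by Snail. Genes of the Enhancer of split complex are switched on by Notch through the DNA-binding protein Su(H), and its basic helix-loop-helix (bHLH) proteins, E(spl)mδ-HLH among them, repress transcription by recruiting Groucho, the product of gro.

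Sequence at the summits is shown first for the summit nearest to a start site of each gene that had one, since these are the summits closest to the members themselves. Each line gives 101 bases, 50 to either side of a thresholded summit, on the plus strand of dm6. Capitals mark matches on either strand to the palindromic E-box CACGTG, the C-site CACGCG, the N-box CACNAG, the proneural type of E-box GCAGNTG, the core of the Su(H) site TGGGAA, the GAGA repeat GAGAGAG, the Zelda-type site CAGGTAG and the control GTGCAC, which has the bases of the palindromic E-box in another order. No 2 of the matches overlapped.
E(spl)malpha-BFM, chr3R:26010788-26010888, 55 bp upstream of its start site: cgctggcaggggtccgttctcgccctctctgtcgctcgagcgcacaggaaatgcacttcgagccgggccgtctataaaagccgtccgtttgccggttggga
E(spl)m2-BFM, chr3R:26017565-26017665, 145 bp upstream of its start site: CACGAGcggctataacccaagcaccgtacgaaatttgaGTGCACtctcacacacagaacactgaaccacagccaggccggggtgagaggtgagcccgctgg
E(spl)m6-BFM, chr3R:26032317-26032417, 544 bp upstream of its start site: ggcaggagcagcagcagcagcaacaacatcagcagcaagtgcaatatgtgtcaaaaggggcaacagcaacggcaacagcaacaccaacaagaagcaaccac
Kaz-m1, chr3R:26013673-26013773, 998 bp upstream of its start site: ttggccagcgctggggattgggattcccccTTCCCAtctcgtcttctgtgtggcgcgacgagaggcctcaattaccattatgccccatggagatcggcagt
E(spl)m4-BFM, chr3R:26023329-26023429, 442 bp beyond its 3' end: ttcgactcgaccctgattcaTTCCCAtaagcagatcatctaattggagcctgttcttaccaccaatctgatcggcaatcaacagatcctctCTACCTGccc
Ocho and Brd, chr3L:14977530-14977630, 1540 bp beyond the 3' end of Ocho: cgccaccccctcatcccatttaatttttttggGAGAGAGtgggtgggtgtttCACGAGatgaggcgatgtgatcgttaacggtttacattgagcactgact

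The windows upstream of E(spl)malpha-BFM and E(spl)m6-BFM held none of the 8 motifs whole. The E(spl)malpha-BFM window ended inside the Su(H) core that begins 9 bp before its start site, so that match was not counted. The E(spl)m2-BFM window held an N-box and the control, the Kaz-m1 window held a Su(H) core, and the E(spl)m4-BFM window held a Su(H) core and a Zelda-type site. The window shared by Ocho and Brd held a GAGA repeat and an N-box.

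Thresholded peaks were more numerous around the Enhancer of split members than around the Bearded complex members. The authors' thresholded list holds the peaks they kept by the irreproducible discovery rate (IDR). The pooled list, that of both replicates together, is labelled as peaks and background. A weak entry in it need not be binding. Each member peak in the thresholded list held the same place by signal in the pooled list. Near the members the thresholded list was thus a cut on pooled signal, and a peak in it need not be strong in each replicate. In this list 7 of the 9 genes had a summit in the gene body or within 5 kb, against 30.4% of all protein-coding genes. The 5 members on 3R all had one, Brd and Ocho shared a single one, and Tom and BobA had none, so 2 of the 4 Bearded complex members had a summit. No test was made of this count, because neighbouring members take their peaks from the same few kilobases. The members' windows held 24 distinct thresholded summits, of which 12 fell in the windows of 2 or 3 members.

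The number of summits per gene varied widely between the members. E(spl)malpha-BFM had 11 thresholded summits within 5 kb, Kaz-m1 had 10, E(spl)m2-BFM 9, E(spl)m6-BFM 6 and E(spl)m4-BFM 3. Among the 4233 protein-coding genes with at least 1 summit the median was 1, which was also the count of Brd and of Ocho. Only 4 of the 13945 genes, or 0.0287%, had 11 or more, whereas 3.66% had 3 or more.

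In the signal value, the authors' own enrichment statistic per peak, the strongest summit within 5 kb was 1431 for E(spl)malpha-BFM, 719 for E(spl)m6-BFM, 679 for Kaz-m1 and 666 for both E(spl)m2-BFM and E(spl)m4-BFM, against a median of 178 over the 4233 genes. For Brd and Ocho it was 122, and 92.9% of those genes had a stronger one. None of these summits on 3R was at the start site of the member it was counted for. The strongest of E(spl)malpha-BFM lay 82 bp upstream of E(spl)mbeta-HLH, that of E(spl)m6-BFM 32 bp upstream of E(spl)m7-HLH, and the one shared by E(spl)m2-BFM and E(spl)m4-BFM 829 bp upstream of E(spl)m3-HLH, all bHLH repressor genes. The one counted for Kaz-m1 was the summit at the start of E(spl)malpha-BFM.

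**Figure D1:**
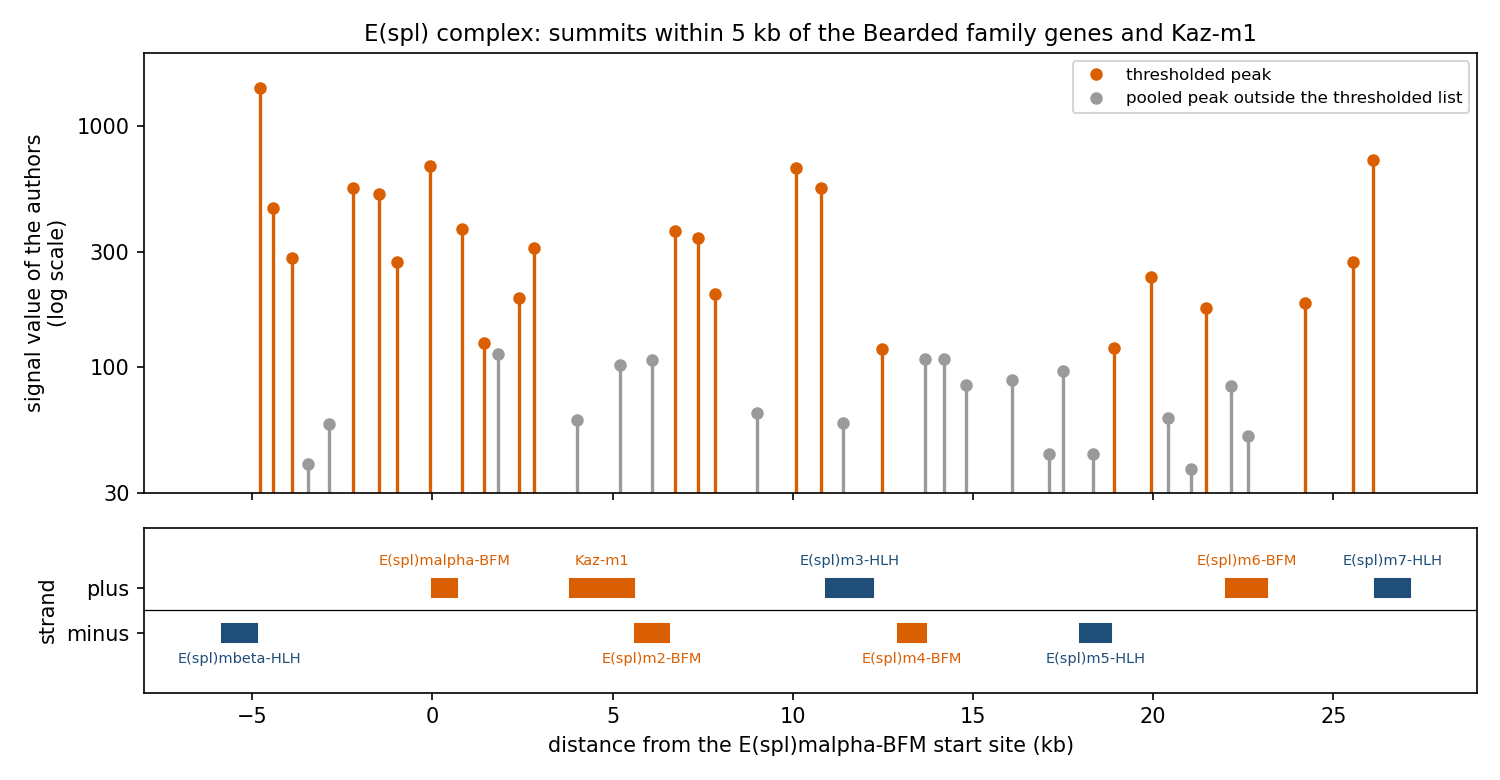
Summits of the pooled list within 5 kb of the 5 members in the Enhancer of split complex, by distance from the E(spl)malpha-BFM start site in kb (x axis) and signal value on a log scale (y axis), with thresholded peaks in orange and the others in grey. Boxes below show the members in orange and the bHLH genes in blue on each strand. The thresholded summits stand between the genes and at their starts, and none stands inside an orange box.

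None of the 9 members held a thresholded summit inside its gene body, against 9.06% of all protein-coding genes. A count of 0 in 9 allows a share of up to 33.3%, taken as 3 divided by the number counted. This rule assumes independent genes, and neighbouring members are not independent, so it is a rough guide. The members are short, from 532 to 1767 bp with a median of 957 bp, against a median of 2166 bp over all protein-coding genes, and the part of gene length in this count was not tested. Of the 24 summits, 19 lay in intergenic sequence and 5 in exons of long non-coding RNA genes.

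When each summit was given to the protein-coding gene with the nearest transcription start site (TSS), 13 of the 24 went to a member. E(spl)malpha-BFM took 6, E(spl)m2-BFM 3, Kaz-m1 2, and E(spl)m4-BFM and E(spl)m6-BFM 1 each. The Bearded complex members took none, since the summit near Ocho and Brd was nearest, among protein-coding genes, to CG3349 at 2040 bp. The other summits on 3R went to E(spl)mbeta-HLH, E(spl)m3-HLH, E(spl)m5-HLH and E(spl)m7-HLH.

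E(spl)malpha-BFM (FBgn0002732, 3R 26010893 to 26011568, plus strand) had the strongest peak at its own start among the members. The peak (3R 26010714 to 26010956) covers the start site, with its summit 55 bp upstream, and had a signal of 679 and place 29 in the order of signal. In the replicates' own lists the summit had a signal of 360 in replicate 1 and 323 in replicate 2, at places 46 and 13 of 30000, so it stood near the top in both. Further upstream, summits 2195 bp (signal 550), 1480 bp (520) and 967 bp (272) before the start site held places 48, 59 and 376.

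Past the 3' end of E(spl)malpha-BFM, 2 more summits were nearest to it. The summit 815 bp downstream of the start site had a signal of 371. The summit 1430 bp downstream had a signal of 125, and it was the member summit on which the replicates differed most. It held place 506 in replicate 2 (signal 104) and place 24705 in replicate 1 (signal 25.0), so replicate 1 alone would not have placed it among the strong peaks. A pooled summit 1817 bp downstream, at place 2920, was matched at place 1185 in replicate 1 (signal 106) and had no match in replicate 2.

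E(spl)m2-BFM (FBgn0002592, 3R 26016514 to 26017470, minus strand) had the second promoter peak. Its summit lay 145 bp upstream of the start site (3R 26017490 to 26017739) with a signal of 367 and place 153. The matched summit had a signal of 210 in replicate 1 and 160 in replicate 2, at places 203 and 140. Summits 790 bp (signal 342) and 1275 bp (199) upstream followed, both within exons of the non-coding RNA gene lncRNA:CR43643. All 3 lay within 5 kb of Kaz-m1 as well.

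Kaz-m1 (FBgn0002578, 3R 26014721 to 26016487, plus strand) shared every one of its 10 thresholded summits with E(spl)malpha-BFM, E(spl)m2-BFM or E(spl)m4-BFM. The 2 nearest to its start site lay 998 bp (signal 310, place 257) and 1426 bp (signal 192, place 921) upstream. The nearer one held place 98 in replicate 2, where the matched summit lay 79 bp away, against 494 in replicate 1. The farther one held place 563 in replicate 1 against 2800 in replicate 2, so each replicate placed a different one of the pair far higher than the other replicate did. At the start of Kaz-m1 itself the pooled list had only a weak summit, 193 bp downstream, with a signal of 60.0 and place 10409 of 30000. Its deposited −log10 q, which is higher for clearer peaks, was 0.775, and the pooled list includes background.

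E(spl)m6-BFM (FBgn0002632, 3R 26032911 to 26034047, plus strand) had 1 thresholded summit nearest to it, 544 bp upstream (3R 26032242 to 26032491, signal 174, place 1168). It was of middling strength in both replicates, with a signal of 99.2 and place 1349 in replicate 1 and a signal of 79.6 and place 1053 in replicate 2. A weaker pooled summit 142 bp downstream of the start (signal 83.2, place 5216) had a counterpart in replicate 2, 146 bp downstream at place 1521. In replicate 1 the summit closest to this start lay 145 bp upstream at place 18186. A peak just inside E(spl)m6-BFM was thus seen in replicate 2 and not in replicate 1.

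E(spl)m4-BFM (FBgn0002629, 3R 26023821 to 26024579, minus strand) stood just outside the threshold at its own promoter. The pooled list held a peak across its start (3R 26024443 to 26024692), with the summit 11 bp downstream, a signal of 108 and place 3176, while the weakest thresholded peak of the whole list had a signal of 117. The summit appeared in replicate 1 at place 2897 (signal 68.8) and in replicate 2 at place 4526 (signal 42.9). The thresholded summit nearest to this gene was beyond its 3' end, 442 bp from the gene body and 1200 bp from the start, with a signal of 118 and place 2704. Its 2 stronger summits, of signals 666 and 549, lay upstream of the neighbour E(spl)m3-HLH.

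Ocho (FBgn0040296, 3L 14974848 to 14976040, plus strand) likewise had a start site peak that missed the thresholded list. The summit (3L 14975121 to 14975370) lay 63 bp downstream of its second start site, in the 5' UTR, with a signal of 105 and place 3334. It held place 3263 in replicate 1 (signal 64.9) and 5393 in replicate 2 (signal 40.0). E(spl)m4-BFM and Ocho thus had promoter peaks of much the same place in the pooled list, although they belong to different complexes.

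The thresholded peak within 5 kb of Ocho and Brd (3L 14977455 to 14977704, signal 122, place 2499) lay over the start of another gene. Its summit was 51 bp inside lncRNA:marge, a non-coding RNA gene read towards Ocho from the minus strand. It was 4382 bp from the 3' end of Brd. In replicate 1 the nearest summit had a signal of 91.7 and place 1619, while in replicate 2 it had a signal of 34.1 and place 8148. The replicate 1 summit lay 59 bp from the thresholded one, 8 bp before the start of lncRNA:marge, and the replicate 2 summit lay 1 bp from it.

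Brd (FBgn0000216, 3L 14972667 to 14973198, plus strand), the founding member of the family, had weak summits before its start. In the pooled list they lay 200, 571 and 1062 bp upstream, with signals of 48.2, 75.9 and 69.0 and places 17181, 6292 and 7693. Their −log10 q values were 0.442, 1.33 and 1.09. Within 500 bp of the start, replicate 1 had its strongest summit 238 bp upstream at place 4699 and replicate 2 had its own 21 bp downstream at place 13694. The replicates therefore did not mark the same position within 500 bp of this start. The summit 571 bp upstream had counterparts in both, at place 9425 in replicate 1 and 7017 in replicate 2.

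Tom (FBgn0026320, 3L 14969344 to 14970306, plus strand), whose protein inhibits Neuralized in the embryo, had 2 pooled summits inside it, 4 bp and 364 bp from the start, with signals of 45.8 and 49.7 and places 19251 and 15953. Their −log10 q values were 0.384 and 0.481, and the pooled list includes background. Both summits had counterparts in replicate 2, at places 15351 and 13716, and replicate 1 had no summit within 500 bp of the start. The nearest thresholded summit, that of lncRNA:marge, lay 7.27 kb from the gene.

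BobA (FBgn0040487, 3L 14945499 to 14946125, minus strand) was the only member with no pooled summit within 500 bp of its start. The 2 pooled summits in its window had signals of 84.8 and 52.8, and both lay in a coding exon of DCX-EMAP, the nearer one 4207 bp from BobA. No pooled summit lay between that one and the next, 15.2 kb away, and the same stretch was empty in replicate 1 (15.2 kb) and replicate 2 (15.1 kb). Of the stretches of 50 bases within BobA, 64.5% occurred more than once in the genome, against 0% within each of the other 8 genes. Over the empty stretch as a whole 14.4% did. Reads from repeated sequence cannot be placed with certainty, how they were handled is not given in the sources used here, and their part in the lack of peaks at BobA was not tested.

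**Figure D2:**
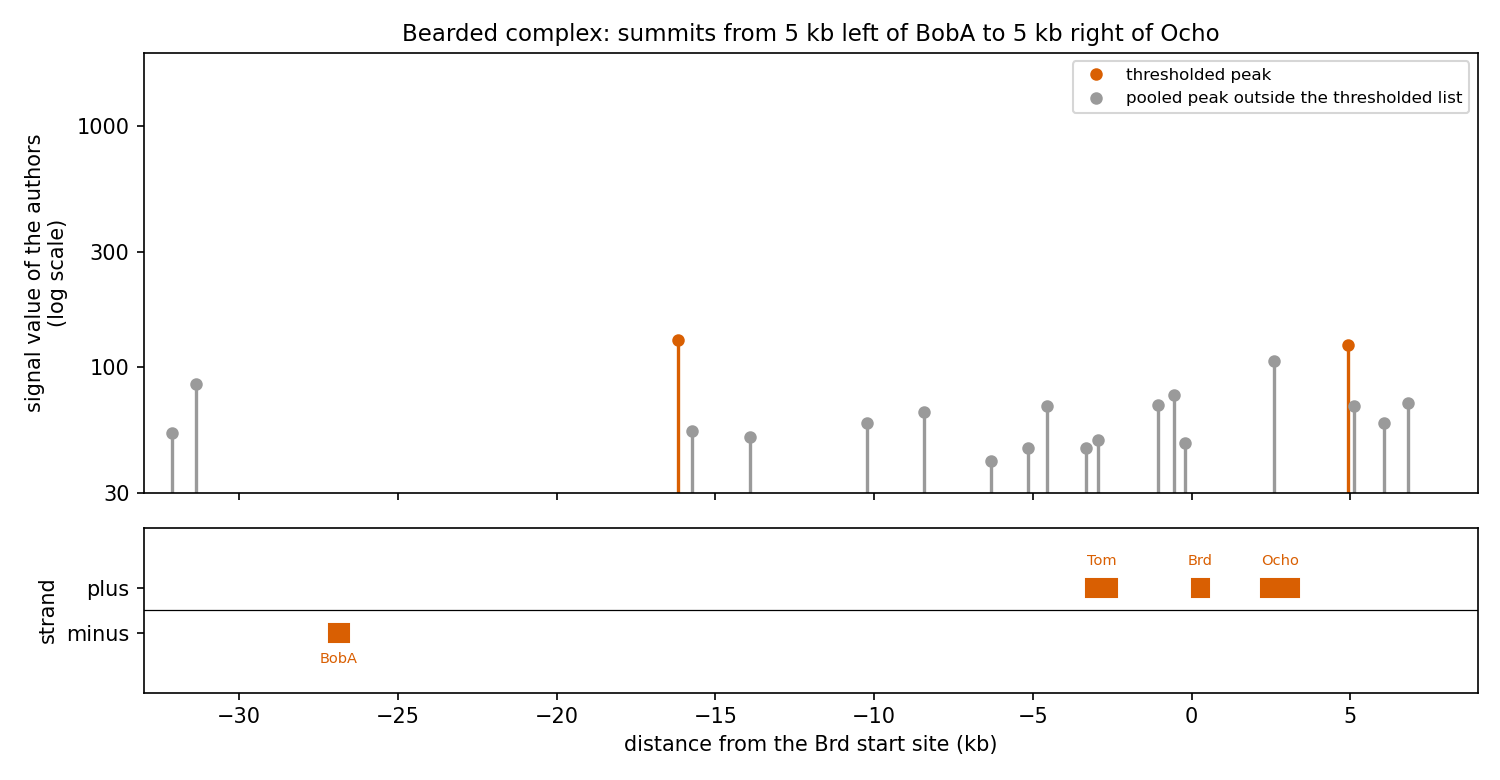
Summits of the pooled list from 5 kb left of BobA to 5 kb right of Ocho, by distance from the Brd start site in kb (x axis) and signal value on a log scale (y axis), with thresholded peaks in orange and the others in grey, and the 4 members as boxes on each strand. The 2 thresholded peaks have signals of 128 and 122, and no summit falls in the 15.2 kb around BobA.

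The share of pooled peaks that passed the authors' threshold differed between the clusters. The members' thresholded peaks were their pooled peaks of highest signal, so this share is another view of signal and not a separate result. Of the 42 pooled summits in the windows of the 5 Enhancer of split members, 23 (54.8%) were in the thresholded list, against 1 of 15 (6.67%) for the Bearded complex members and 9.17% of all 30000. From 5 kb left of E(spl)malpha-BFM to 5 kb right of E(spl)m6-BFM (33.2 kb) there were 6.94 thresholded and 12.7 pooled summits per 10 kb. From 5 kb left of BobA to 5 kb right of Ocho (40.5 kb) there were 0.493 thresholded and 4.93 pooled summits per 10 kb. No density over the whole genome was computed, so these values compare the clusters with each other only. Every member had a pooled summit within 5 kb, as did 86.6% of all protein-coding genes, so at that depth of the list the members' count was near that of other genes.

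At the promoters the members' strongest pooled summits ranged from place 29 to place 17181 of 30000, and BobA had none. A thresholded summit lay within 500 bp of a TSS of E(spl)malpha-BFM and E(spl)m2-BFM, 2 of the 9, against 12.0% of all protein-coding genes. A pooled summit did so at 8 of the 9, all except BobA, against 46.4%. The pooled list includes background, so neither share need reflect binding. At Kaz-m1, Tom and Brd the strongest such summit had a −log10 q of only 0.775, 0.481 and 0.442. In the order of their strongest pooled promoter summit came E(spl)malpha-BFM (place 29), E(spl)m2-BFM (153), E(spl)m4-BFM (3176), Ocho (3334), E(spl)m6-BFM (5216), Kaz-m1 (10409), Tom (15953) and Brd (17181). E(spl)malpha-BFM and E(spl)m2-BFM kept the first and second place in each replicate. E(spl)m6-BFM came next after them in replicate 2 and was last of the 7 genes with a promoter summit in replicate 1, so the order below these 2 genes was not settled between the replicates. The order also depended on the limit of 500 bp. E(spl)m6-BFM had a thresholded summit 544 bp upstream at place 1168, and at places 1349 and 1053 in replicates 1 and 2. Brd had a pooled summit 571 bp upstream at place 6292.

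**Figure D3:**
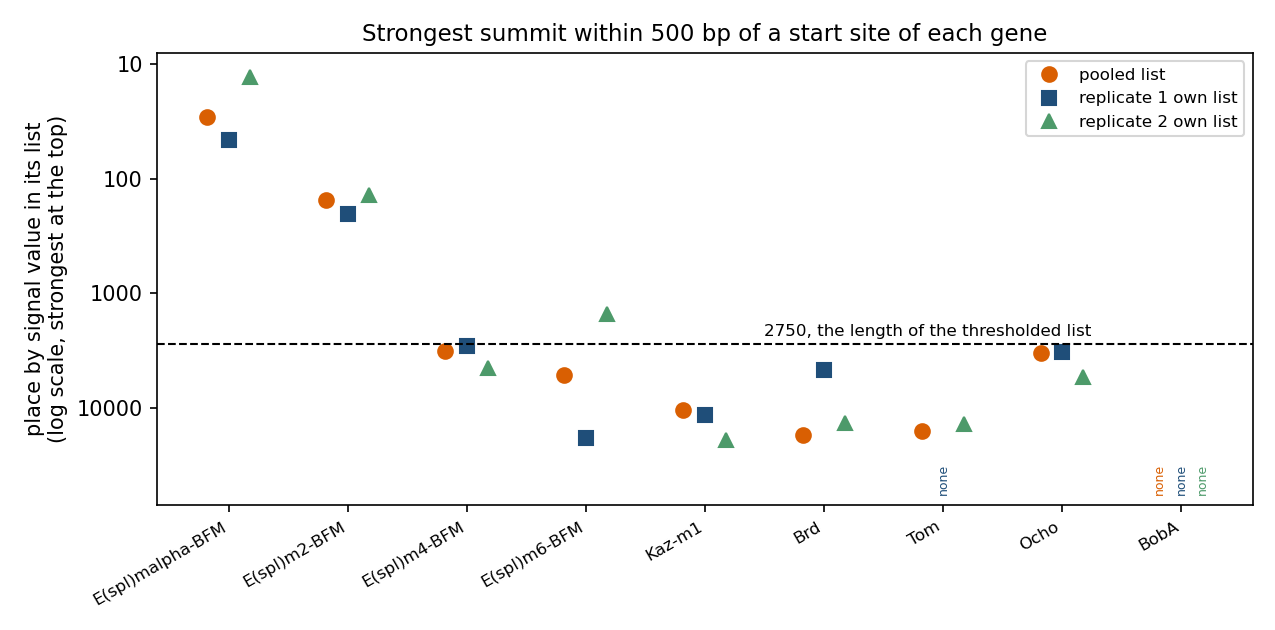
Place by signal value, on a log scale with the strongest at the top (y axis), of the strongest summit within 500 bp of a start site of each member (x axis) in the pooled list and in each replicate's own list; "none" marks a list without such a summit. E(spl)malpha-BFM and E(spl)m2-BFM stand far above the dashed line at the length of the thresholded list in all 3 lists, E(spl)m4-BFM and Ocho lie below it, at places 3176 and 3334 in the pooled list and 4526 and 5393 in replicate 2. E(spl)m6-BFM lies above it in replicate 2 alone (1521), and BobA has no point.

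The promoters without a thresholded summit were compared by sequence. Those of E(spl)m6-BFM, Kaz-m1 and Ocho lacked the proneural type of E-box and are not shown. Each line below gives the 250 bases before the start site on the gene's own strand, with matches to the same 8 motifs in capitals, for the 4 members whose promoter held the proneural type of E-box GCAGNTG. Over all 19607 start sites of protein-coding genes 13.7% of such promoters held it.
E(spl)m4-BFM, chr3R:26024580-26024829, minus strand: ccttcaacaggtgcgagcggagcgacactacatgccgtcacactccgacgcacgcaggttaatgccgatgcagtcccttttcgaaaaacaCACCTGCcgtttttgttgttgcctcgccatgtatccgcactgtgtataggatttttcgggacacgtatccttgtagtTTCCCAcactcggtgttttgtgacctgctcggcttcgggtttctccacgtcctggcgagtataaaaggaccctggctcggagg
Brd, chr3L:14972417-14972666, plus strand: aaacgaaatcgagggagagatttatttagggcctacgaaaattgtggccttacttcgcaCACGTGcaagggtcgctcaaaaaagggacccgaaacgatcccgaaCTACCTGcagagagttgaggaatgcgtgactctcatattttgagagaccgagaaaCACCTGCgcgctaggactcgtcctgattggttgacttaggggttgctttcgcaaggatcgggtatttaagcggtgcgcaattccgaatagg
Tom, chr3L:14969094-14969343, plus strand: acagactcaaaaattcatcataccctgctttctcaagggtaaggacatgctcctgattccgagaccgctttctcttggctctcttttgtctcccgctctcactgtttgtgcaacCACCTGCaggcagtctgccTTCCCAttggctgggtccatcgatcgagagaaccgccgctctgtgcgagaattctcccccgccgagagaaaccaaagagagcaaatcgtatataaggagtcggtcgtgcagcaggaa
BobA, chr3L:14946126-14946375, minus strand: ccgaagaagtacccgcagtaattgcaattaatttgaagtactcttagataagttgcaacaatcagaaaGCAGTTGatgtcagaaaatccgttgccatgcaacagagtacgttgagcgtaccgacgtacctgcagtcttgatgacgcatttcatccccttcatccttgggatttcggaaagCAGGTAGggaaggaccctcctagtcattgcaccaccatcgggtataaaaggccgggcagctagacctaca

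The proneural type of E-box began 160 bp before the start in E(spl)m4-BFM, 91 bp in Brd, 136 bp in Tom and 182 bp in BobA. The Brd promoter also held a palindromic E-box, 191 bp before the start. The Zelda-type site was in 2 of the 9 promoters, 146 bp before the start in Brd and 70 bp in BobA, against 1.54% of all. The palindromic E-box was found in 1 more member promoter, that of E(spl)m6-BFM, 207 bp before its start, and in 2.80% of all promoters. The reordered control was likewise in 2 of the 9, E(spl)m2-BFM and Ocho, and in 4.53% of all. The C-site was in none of the 9, which by the same rough rule allows a share of up to 33.3%, and in 5.06% of all. The Su(H) core was in 5 of the 9, namely E(spl)malpha-BFM, E(spl)m2-BFM, E(spl)m4-BFM, Tom and Ocho, against 13.9% of all promoters. For Ocho the promoter scanned was the one before its first start site, not the second, where its summit lay. In E(spl)malpha-BFM it began 9 bp before the start and in E(spl)m4-BFM 83 bp before it. These are matches of letters and do not show binding.

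At the 24 thresholded summits near the members, the Su(H) core was the motif farthest, in percentage points, from its share over all summits. It was in 7 of the 24 windows of 101 bases (29.2%), against 4.95% of all thresholded windows. The 7 were at E(spl)mbeta-HLH, lncRNA:CR45039, 2195 bp upstream of E(spl)malpha-BFM, 998 bp upstream of Kaz-m1, 1275 bp upstream of E(spl)m2-BFM, beyond the 3' end of E(spl)m4-BFM and 603 bp upstream of E(spl)m7-HLH. The proneural type of E-box was in 0 of the 24, which by the same rough rule allows a share of up to 12.5%, against 9.75% of all thresholded windows. The Zelda-type site was in 2 (8.33%), beyond E(spl)m4-BFM and at E(spl)m5-HLH, against 0.982%.

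The boxes that bHLH repressors of this class are known to bind were also counted in the members' windows. At least 1 of the palindromic E-box, the C-site and the N-box was in 8 of the 24 windows (33.3%, exact binomial 95% interval 15.6 to 55.3, counting error only), against 27.0% of all thresholded windows. The interval assumes independent windows, while 23 of the 24 lie in a single complex, so it is a rough guide and not a test. The 24 are also part of the windows they are set beside. The N-box was in 7 (29.2%) against 17.1%, the C-site in 1 (4.17%) against 8.47%, and the palindromic E-box in 1 (4.17%), the window 32 bp upstream of E(spl)m7-HLH, against 3.35%. The reordered control was in 1 (4.17%) against 4.0%, and the GAGA repeat in 1 (4.17%) against 9.24%. Mean GC content was 55.1% (SD 5.96, n = 24) in the members' windows and 51.2% (SD 6.56) in all thresholded windows. The part of base composition in these shares was not tested.

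The replicates were compared on where the members' peaks lay and on their place by signal, which are measures of different kinds. All 24 thresholded summits had a summit within 100 bp in both replicates' lists of 30000 peaks (100%, exact binomial 95% interval 85.8 to 100), as had 97.0% of all thresholded summits. The thresholded list was made from these lists, so this is a description. A place in each replicate's list within the length of the thresholded list was held by 19 of the 24, against 60.5% of all thresholded summits. The median pooled signal was 296 for the 24 and 162 over all, and the part of signal in this share was not tested. On 3R the place was higher in replicate 2 for 17 of 23 summits, whereas among all 2667 matched thresholded peaks it was higher in replicate 2 for 44.5%. The summit near Ocho and Brd went the other way.

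The count of members also depended on the replicate. When the strongest peaks of replicate 1 alone were taken, as many as the thresholded list holds, 7 of the 9 genes had a summit within 5 kb, against 29.8% of all protein-coding genes. With those of replicate 2 alone 5 did, against 31.4%, because no peak in the windows of Brd and Ocho reached that list. The 5 genes on 3R had a summit in either replicate.

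**Figure D4:**
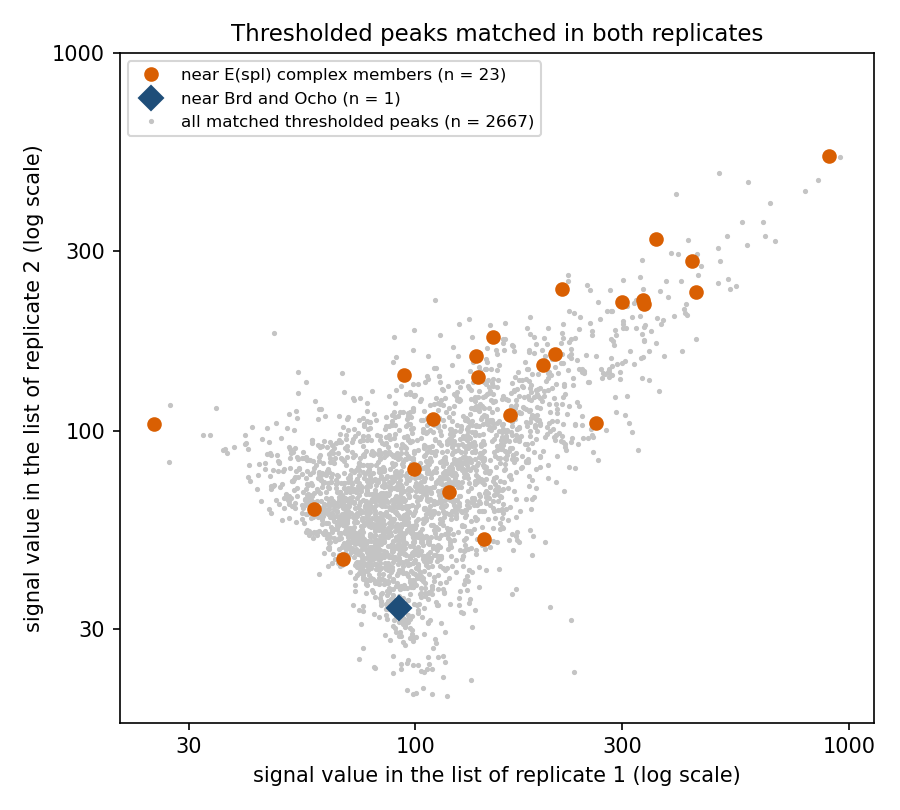
Signal value in the list of replicate 1 (x axis) and replicate 2 (y axis), both on log scales, of thresholded peaks matched within 100 bp in both replicates. The summits near the 3R members, in orange, spread along the whole cloud and include its upper end, and the single summit near Brd and Ocho, in blue, lies in its lower part with 91.7 in replicate 1 and 34.1 in replicate 2.

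The bHLH neighbours in the Enhancer of split complex also had peaks around them. All 7 bHLH genes and gro had thresholded summits within 5 kb, from 3 for E(spl)m5-HLH and gro to 11 for E(spl)mbeta-HLH, and many of these are the summits already described. Of 9 genes listed for the Neuralized and Notch pathway, 5 had a summit, against the 30.4% of all protein-coding genes given above. They were neur, which encodes Neuralized (4 summits, strongest signal 258), mib1, a second ubiquitin ligase for Notch ligands (2 summits, 237), the ligand gene Delta (2 summits, 263), the receptor gene N (2 summits, 206) and the coactivator gene mam (7 summits over a gene of 69154 bp, 292). Ser, Su(H), H and lqf had none. Delta (23487 bp) and N (37352 bp) are long genes too, against a median of 2166 bp over all protein-coding genes. Ser, at 22178 bp, was long without a summit. The part of gene length in this count was not tested. Unlike the Bearded family genes, neur held its 4 summits inside its gene body, which spans 19124 bp.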

How the data were processed

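The authors deposited 4 peak lists in narrowPeak layout on assembly dm6, per the deposited file listing: 1 for each of 2 replicates, 1 for both together, and 1 that keeps the peaks passing a threshold on reproducibility (IDR). The list for both together is labelled as peaks and background, the input for IDR. All 4 lists were derived against the same control alignment. The sources used here do not name the aligner, the peak caller or the IDR cutoff. The deposited signal value is the authors' enrichment statistic, used only within a list. The deposited −log10 q value was at its ceiling in 2029 thresholded peaks and was not used for ranking. Summit offsets and coordinates were deposited in another unit, bp. Read depth is unknown, so intervals cover counting error only.

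Genes and start sites came from Ensembl release 115 (BDGP6), and sequence from NCBI RefSeq Release 6, the assembly of dm6. All 9 member names matched. Summits (peak start plus offset, 1-based) were placed within 5 kb of gene bodies, and replicate summits were matched within 100 bp. The assignment was tested on simulated data. The members, lists, motifs and alternatives were chosen with earlier results of these data known. Named genes are all members, the bHLH genes and gro, 9 pathway genes, and any gene with the TSS nearest to a member's summit; DCX-EMAP was named after its value was seen. No test across genes was run. Protein comparisons are not reported here. Alternatives varied the distance, the assignment, the threshold, the list, the match and the motif window. Python 3.11.15, numpy 2.4.6, pandas 2.3.3, scipy 1.17.1 and matplotlib 3.10.9 were used.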

Additional observations from a re-analysis of the deposited data

How the results depend on the processing

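The 7 members with a thresholded summit within 5 kb became 0 with gene bodies alone. They became 6 within 2 kb, 8 within 10 kb, 5 with the stronger 50% of the peaks or with nearest start sites only, and 5 to 7 with 1 replicate left out. The 24 summits became 0 with gene bodies alone, 14 within 2 kb, 13 with nearest start sites only and 57 in the whole pooled list, and 22 to 24 with 1 replicate left out. The share of all protein-coding genes with a summit (30.4%) was 9.06% with gene bodies alone, 21.1% within 2 kb, 43.0% within 10 kb, 17.9% with the stronger 50% of the peaks, 12.6% with nearest start sites only and 86.6% in the whole pooled list, and 29.8% to 31.4% with 1 replicate left out. The share of the 24 summits matched in both replicates was 79.2% when each replicate list was shortened to the length of the thresholded one and 87.5% within 50 bp. The share of windows with an E-box or N-box (33.3%) ran between 27.3% and 45.8% over 4 alternatives. The higher values, 41.7% within 100 bp to either side and 45.8% over the whole peak, came from mostly longer sequence. The share over all thresholded windows at those lengths is not given here. Fewer peaks or shorter windows are by construction fewer counts. No paired analysis was possible because there is 1 group. The lists hold no read counts, so a weak peak cannot be told from shallow sequencing.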

Other observations

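Non-coding RNA genes lay under several of the summits around the Bearded family genes. The summit of signal 281 between E(spl)mbeta-HLH and E(spl)malpha-BFM was 67 bp inside lncRNA:CR45039, the summit of signal 666 upstream of E(spl)m3-HLH was 82 bp inside lncRNA:CR43644, and the thresholded summit near Ocho was 51 bp inside lncRNA:marge. In each of these 3 cases the start of the RNA gene was closer than that of any protein-coding gene, which lay 983, 829 and 2040 bp away. For lncRNA:marge, the matched summit of replicate 1 lay 8 bp before the start of the RNA gene.

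The Bearded complex held 1 thresholded summit outside every member's window (3L 14956348 to 14956597, signal 128, place 2262). It was intergenic and 10.3 kb from BobA, and it held place 1824 in replicate 1 and 4914 in replicate 2.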
